A study of Saccharomyces cerevisiae with 14 samples.

Results

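The cell wall integrity kinase pathway of budding yeast was followed here through the transcripts of 10 of its genes after a pulse of rapamycin, an inhibitor of the TOR complex 1 kinase. The genes are the sensor genes WSC2 and MID2, ROM2, RHO1, PKC1, BCK1, MKK1, MKK2, SLT2 and RLM1. They were taken as the probe sets whose single budding yeast gene in the array annotation was one of these names. All 10 were found, with 1 probe set each, among the 5449 genes measured.

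The cells were the wild-type strain YSBN6 of Saccharomyces cerevisiae, grown at 30 °C and pH 5 in fermentors. The minimal medium held glutamine (1 g/L) as the nitrogen source and glucose (20 g/L) as the carbon source. Rapamycin was added to 400 µg/L near an optical density of 1. Total RNA from 14 samples was read on Affymetrix arrays, 1 array per sample, in 3 fermentations named BY005, BY006 and BY007, which the design text calls biological replicates. All 3 were sampled 7 and 24 min after the pulse and 10 min before it, a time called steady state below, and BY005 alone also at 3, 10, 14, 56 and 120 min. No array came from a culture without rapamycin after the steady-state sample, so rapamycin cannot be told apart from the pulse itself or from time in the fermentor.

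In this pathway, sensor proteins in the plasma membrane detect stress on the cell wall and recruit Rom2, which loads the small GTPase Rho1 with GTP. Rho1 activates protein kinase C (Pkc1), which acts on a chain of kinases, Bck1, then the paralogs Mkk1 and Mkk2, then the MAP kinase Slt2. Slt2 phosphorylates the transcription factor Rlm1, which turns on cell wall genes and also SLT2. The signal itself travels by phosphorylation, which the arrays did not measure.

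Values are RMA intensities on the log2 scale, where RMA is a joint background correction, normalization and summary of probes that makes the arrays alike in overall distribution. A change is a log2 difference between times, ± the standard error of the fit across all genes. A gene was said to rise or fall where limma's Benjamini-Hochberg adjusted p was under 0.05. Levels of different probe sets are not compared. The median gene had an SD between 0.0672 and 0.0904 within the replicated times (log2, n = 3 arrays each), and the least alike pair of replicate arrays had an r of 0.989 over all genes. On every array the 3' probe set of ACT1 read 0.59 to 0.83 above the 5' one, a gap that widens as RNA degrades. The hybridisation controls, which are added after RNA extraction, ran from 8.74 to 11.85 and from 9.61 to 11.81 among the 3 steady-state arrays alone. Scaling to them, called spike-in scaling below, put the median change of all genes at 24 min at 1.08, against 0.11 as deposited, with a median standard error of 0.84 per gene. Directions below are therefore relative to the common distribution of the arrays. Each fall named at 24 min turned positive under that scaling. The scaling moves all genes of an array by the same amount. The changes of sign given with it below thus come from a shared shift at each time and are not separate checks of each gene. These controls were added after RNA extraction and spread widely at steady state, so the scaling cannot decide the direction of a change. RNA came from whole cultures, so less transcript per cell and fewer cells with the transcript cannot be told apart.

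**Figure D1:**
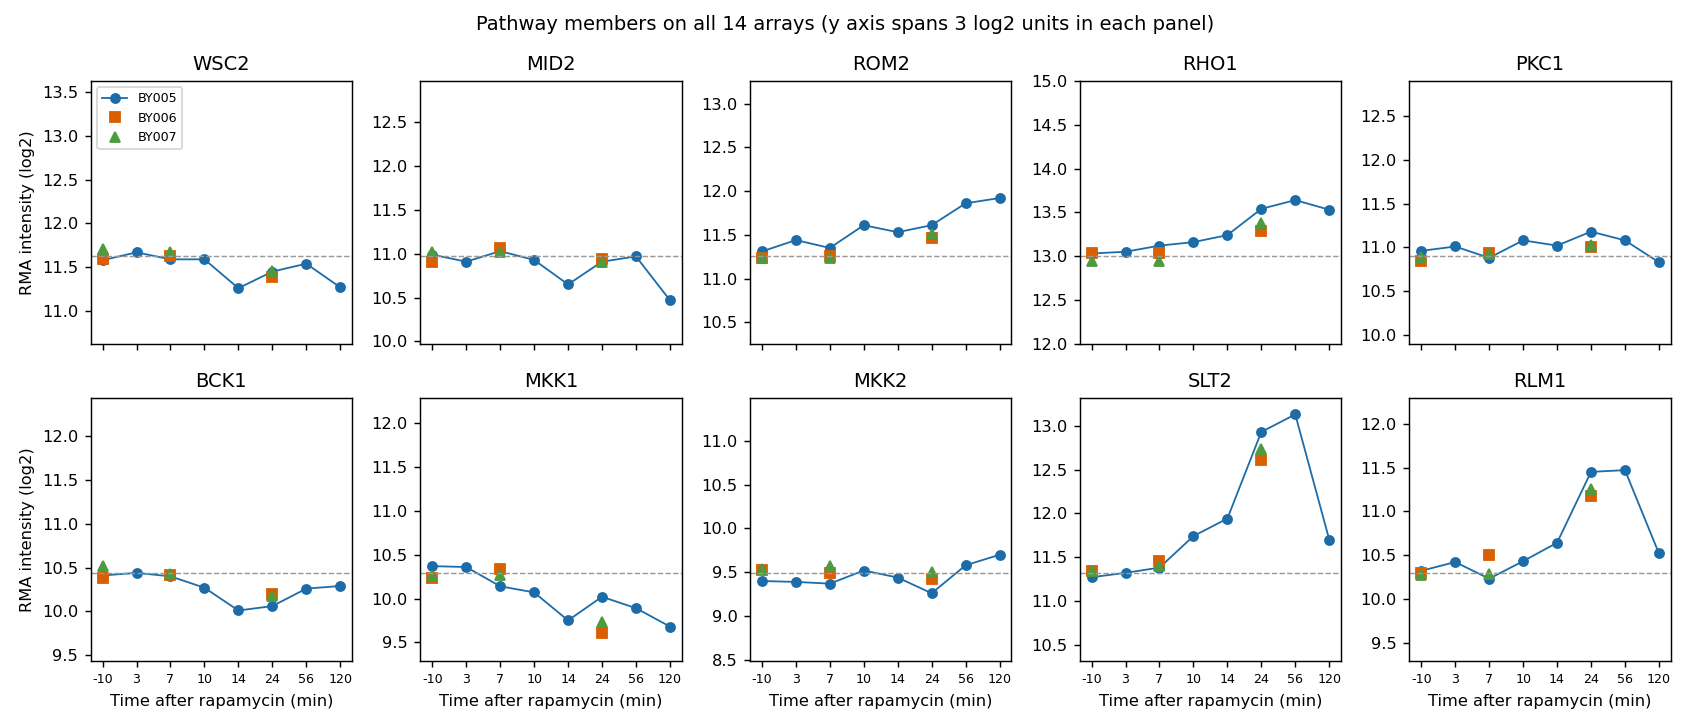
Each panel shows 1 pathway gene, with RMA intensity (log2) against minutes after rapamycin, where -10 is steady state and the times are evenly spaced steps; points are single arrays, coloured by fermentation, the line joins BY005 and the dashed line is the steady-state mean. SLT2 and RLM1 stand well above steady state at 24 min in all 3 fermentations and at 56 min in BY005, and lie closer to it at 120 min.

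The kinase and the transcription factor at the end of the pathway rose most among the members. SLT2 (YHR030C), the MAP kinase, read 12.93, 12.61 and 12.73 at 24 min in BY005, BY006 and BY007, against 11.27, 11.34 and 11.34 at steady state. The groups did not overlap, and the lowest array at 24 min lay more than 1 log2 unit above the highest at steady state. SLT2 was 2.71-fold higher at 24 min (1.44 ± 0.08, adjusted p = 6.3e-07, 95% interval 1.26 to 1.62). This rise ranked 292 among the 5449 genes. Within the fermentations the difference was 1.66, 1.27 and 1.39 for BY005, BY006 and BY007.

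RLM1 (YPL089C), the MADS-box transcription factor phosphorylated by Slt2, read 11.45, 11.17 and 11.25 at 24 min in the same order, against 10.32, 10.29 and 10.27 at steady state. It was higher on every array at 24 min than on any array at steady state, 2-fold by the fit (1.00 ± 0.09, adjusted p = 1.1e-05, 95% interval 0.80 to 1.21), and ranked 585 among all genes. The differences within fermentations were 1.13 in BY005, 0.89 in BY006 and 0.98 in BY007. The calls of SLT2 and RLM1 held with each array of the replicated times left out in turn and with the fermentation as a block. With spike-in scaling both values were larger, 2.42 ± 0.84 and 1.98 ± 0.84, but neither passed (adjusted p = 0.052 for SLT2 and adjusted p = 0.13 for RLM1).

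The rise had shrunk by 120 min in BY005. SLT2 there stood at 11.27 at steady state and at 11.32 by 3 min, 11.38 by 7 min, 11.74 by 10 min and 11.94 by 14 min. It then read 12.93 at 24 min, 13.13 at 56 min and 11.70 at 120 min. SLT2 was thus highest on the 56 min array, 1.86 above its own steady-state array, and 1.44 lower than that at 120 min. RLM1 in BY005 read 10.32 at steady state and 10.42, 10.23, 10.43, 10.64, 11.45, 11.47 and 10.52 at the same times. Its highest array was also that of 56 min, and it lay 0.95 lower at 120 min. In the fit, 120 min against 24 min gave -1.06 ± 0.11 for SLT2 (adjusted p = 0.00015) and -0.77 ± 0.13 for RLM1 (adjusted p = 0.0015). At 56 min SLT2 was up 3.52-fold (1.82 ± 0.11, adjusted p = 1.7e-06) and RLM1 2.26-fold (1.18 ± 0.13, adjusted p = 4.5e-05) relative to the steady-state mean. The spread of single arrays was taken from the replicated times, so these values have no replicate check of their own.

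SLT2 and RLM1 had much the same profile over the 14 arrays, with a Pearson r of 0.985, and RLM1 stood at rank 6 among the 5448 other genes by likeness to SLT2. The 3 genes most like SLT2 were INO1, for the inositol phosphate synthase (r = 0.986), BUL1, for an adaptor of the Rsp5 ubiquitin ligase (r = 0.986), and DLD3, for a lactate dehydrogenase (r = 0.986). They changed at 24 min by 2.69 ± 0.13, 0.65 ± 0.05 and 1.27 ± 0.08. These points share 1 time course and a common normalization, and 66 genes reached an r of 0.95 with SLT2.

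At 3 and 7 min no member passed the threshold. At 7 min 0.899% of all genes were called, 0.826% as rises and 0.0734% as falls. The 10 member changes lay between -0.05 and 0.10, and none had an unadjusted p under 0.05, against 1092 of the 5449 genes. SLT2 had the largest, with 11.38, 11.46 and 11.40 at 7 min in BY005, BY006 and BY007, against 11.27, 11.34 and 11.34 at steady state. Its arrays did not overlap between the times, as for 24.7% of all genes, but the change of 0.10 ± 0.08 did not pass (adjusted p = 0.56, 95% interval -0.08 to 0.28). RLM1 at 7 min read 10.23, 10.50 and 10.28 in BY005, BY006 and BY007, and these values spanned the steady-state level. Over the whole array 49 genes were called at 7 min, 765 without the 7 min array of BY006 and 7 to 33 without any 1 other array, and no member was among them in these fits. At 3 min limma called 0% of genes, and 287 genes had an unadjusted p under 0.05, among them 1 member, ROM2, with a change of 0.19.

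At 24 min 8 of the 10 members had changed, 5 up and 3 down, against 75% of all genes called, 44.5% as rises and 30.4% as falls. The share of members called was thus near that of the array as a whole. Their median change was 0.06, against 0.11 for all genes. The same number, 8, had arrays that did not overlap between 24 min and steady state, as had 78% of all genes.

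**Figure D2:**
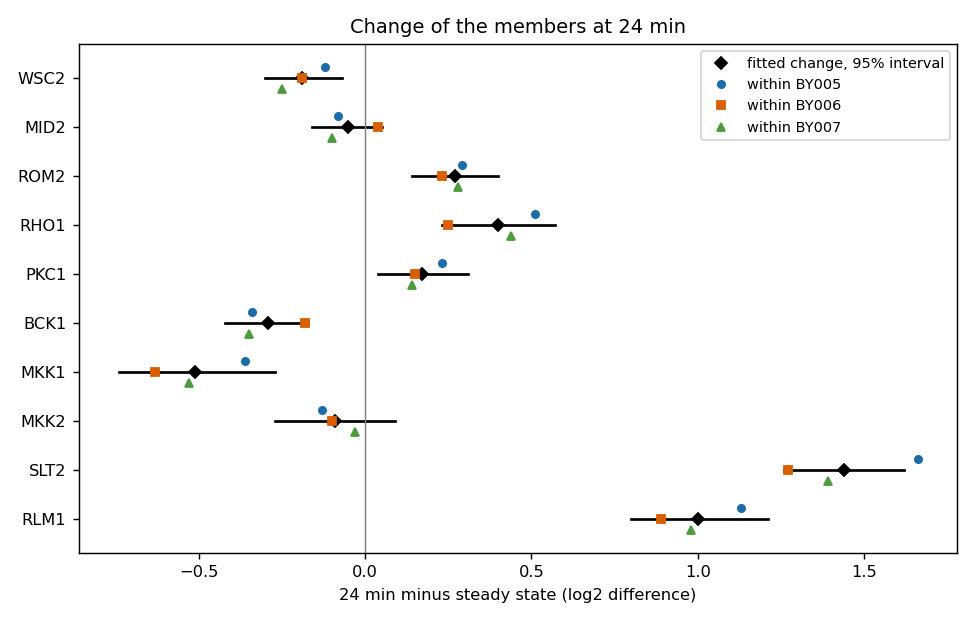
Log2 difference of 24 min minus steady state for each pathway gene, ordered from sensor to transcription factor; black diamonds are the fitted changes with 95% intervals, and coloured points the differences within BY005, BY006 and BY007. The 3 fermentations share the direction for each gene except MID2, and SLT2 (1.44) and RLM1 (1.00) stand apart from the rest, which lie between -0.51 and 0.40. The falls of WSC2, BCK1 and MKK1 turn positive with spike-in scaling (0.79, 0.68 and 0.47).

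Neither sensor gene passed as a rise at any time. WSC2 (YNL283C), for a mannosylated sensor of the Wsc family, read 11.45, 11.39 and 11.46 at 24 min in BY005, BY006 and BY007, against 11.58, 11.59 and 11.71 at steady state. All 3 arrays at 24 min were lower, and the change of -0.19 ± 0.05 passed (adjusted p = 0.0092), though with spike-in scaling it was 0.79 ± 0.84. In BY005 WSC2 was lowest at 14 and 120 min, with 11.26 and 11.27, and stood at 11.54 at 56 min. MID2 (YLR332W), for a sensor that also acts in the response to mating pheromone, read 10.91, 10.94 and 10.91 at 24 min, against 10.99, 10.91 and 11.02 at steady state. Its groups overlapped and the change of -0.05 ± 0.05 did not pass (adjusted p = 0.34, 95% interval -0.16 to 0.05).

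MID2 fell on the arrays of 14 and 120 min in BY005, which read 10.65 and 10.47. The changes against steady state were -0.32 ± 0.06 (adjusted p = 0.0031) and -0.51 ± 0.06 (adjusted p = 0.00015). Between them, at 56 min, MID2 read 10.97, the steady-state mean. WSC2 changed by -0.36 ± 0.07 at 14 min (adjusted p = 0.0029) and by -0.35 ± 0.07 at 120 min (adjusted p = 0.0024). Both sensor genes thus dipped on the 14 and 120 min arrays, each of them a single array.

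The other sensor genes were up at 10 min. These were WSC1, listed as SLG1, for the main sensor of the family, WSC3, WSC4 and MTL1, the paralog of MID2. WSC4, counted with them here, is for a homologue of the surface sensors in the endoplasmic reticulum. All 4 rose on the 10 min array, with a median of 0.57. Over all genes 42% were called, 26.6% as rises and 15.5% as falls. WSC3 rose by 0.56 ± 0.07 (adjusted p = 0.00076), WSC4 by 0.58 ± 0.14 (adjusted p = 0.0094), MTL1 by 0.58 ± 0.19 (adjusted p = 0.036) and WSC1 by 0.35 ± 0.09 (adjusted p = 0.017). The fit sets this BY005 array against the steady-state mean of all 3 fermentations. Against the steady-state array of BY005 alone the differences were 0.59 for WSC3, 0.74 for WSC4, 0.91 for MTL1 and 0.28 for WSC1. The call of MTL1 was lost without 1 of the 24 min arrays, BY006 with adjusted p = 0.053 or BY007 with adjusted p = 0.051, and with quantile normalization of the genes alone (adjusted p = 0.078). With spike-in scaling WSC1 read -0.19 and the others between 0.02 and 0.04. On the same array WSC2 read -0.03 ± 0.07 (adjusted p = 0.78) and MID2 -0.05 ± 0.06 (adjusted p = 0.6), and the difference between the sensors was not tested. At 7 min WSC3 did not pass (0.19, adjusted p = 0.098). It passed in 1 of 9 fits with single arrays left out, without the BY006 array of that time (0.21 ± 0.05, adjusted p = 0.044). That fit called 765 of all genes at 7 min, against 49 with no array left out.

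At 24 min 3 of these 4 genes rose and none fell, with a median of 0.39, where 75% of all genes were called and 44.5% rose. WSC4 rose by 0.52 ± 0.10, MTL1 by 0.41 ± 0.13 and WSC3 by 0.37 ± 0.05 (adjusted p = 0.0012, 0.02 and 0.00011 in that order). WSC1, named after its value was seen, read 0.08 ± 0.07 (adjusted p = 0.32). Without the 24 min array of BY007 MTL1 no longer passed (0.37 ± 0.16, adjusted p = 0.063). At 120 min in BY005 they parted, with WSC4 up by 1.65 ± 0.14 (adjusted p = 1.4e-05), MTL1 up by 0.98 ± 0.19 (adjusted p = 0.0017) and WSC3 down by 0.29 (-0.29 ± 0.07, adjusted p = 0.005). Against the steady-state array of BY005 alone WSC4, MTL1 and WSC3 differed by 1.81, 1.32 and -0.26, in that order.

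RHO1 and ROM2, the genes of the GTPase step, rose at 24 min and were still up on the later single arrays of BY005. RHO1 (YPR165W), the GTPase that also binds and activates glucan synthase, read 13.54, 13.29 and 13.38 at 24 min in BY005, BY006 and BY007, against 13.03, 13.03 and 12.94 at steady state. The groups did not overlap, and RHO1 rose 1.32-fold (0.40 ± 0.08, adjusted p = 0.0012). ROM2 (YLR371W), for the exchange factor that loads Rho1 with GTP, read 11.61, 11.46 and 11.51 at 24 min, against 11.31, 11.23 and 11.23 at steady state, a rise of 1.2-fold (0.27 ± 0.06, adjusted p = 0.0023). Among the 5449 genes the rise of RHO1 ranked 1661 and that of ROM2 2122, where 44.5% of all genes rose. In BY005 the 120 min array was the highest for ROM2, at 11.92, where it was up 1.58-fold (0.66 ± 0.08, adjusted p = 0.00012). RHO1 was highest at 56 min, at 13.64 (0.64 ± 0.11, adjusted p = 0.00067), where it read -0.33 and ROM2 -0.36 with spike-in scaling, and still read 13.53 at 120 min (0.53 ± 0.11, adjusted p = 0.0023).

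Among the members upstream of SLT2, ROM2 alone passed at 10 min, on a single array. Its difference there from RHO1 (0.16) and PKC1 (0.18), which did not pass, was not tested. Of the 10 members 2 rose at that time, ROM2 (0.35 ± 0.08, adjusted p = 0.0078) and SLT2 (0.42 ± 0.11, adjusted p = 0.016). With the fermentation as a block SLT2 missed the threshold at 10 min (0.39 ± 0.13, adjusted p = 0.055), and with spike-in scaling ROM2 and SLT2 read -0.19 and -0.12. ROM1, the paralog of ROM2, read 10.68, 10.62 and 10.66 at 24 min in the 3 fermentations, against 9.18, 9.24 and 9.18 at steady state, a rise of 2.74-fold (1.45 ± 0.12, adjusted p = 6.1e-06). On the 10 min array ROM1 was already up by 1.48 ± 0.17 (adjusted p = 0.00073), and it reached 2.01 ± 0.17 at 120 min (adjusted p = 1.3e-05). At 7 min ROM1 did not pass (0.19, adjusted p = 0.42), and its lowest array, 9.08, lay under the lowest at steady state, 9.18. It passed in 1 of 9 fits with single arrays left out, without the BY006 array of that time (0.35 ± 0.05, adjusted p = 0.0066). That fit called 765 of all genes at 7 min, against 49 with no array left out.

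Of the 6 other genes that act on Rho1 or Pkc1, 3 rose and 1 fell at 24 min, with a median of 0.18. Over all genes 75% were called, 44.5% as rises and 30.4% as falls. Beside ROM1, the rises were TUS1, for a further exchange factor (0.49 ± 0.06, adjusted p = 0.00012), and PKH1, for a kinase of Pkc1 (0.46 ± 0.18, adjusted p = 0.041). PKH1 lost its call without any 1 of 5 arrays, with adjusted p = 0.14 without the steady-state array of BY005, 0.088 without that of BY006, 0.054 without the 7 min array of BY005, and 0.13 and 0.12 without the 24 min arrays of BY006 and BY007. It was also lost with quantile normalization of the genes alone (0.45, adjusted p = 0.051). STT4, for a phosphatidylinositol 4-kinase, fell (-0.38 ± 0.05, adjusted p = 9.2e-05), but read 0.60 ± 0.84 with spike-in scaling.

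PKC1 (YBL105C) changed little. It read 11.18, 11.00 and 11.03 at 24 min in BY005, BY006 and BY007, against 10.96, 10.85 and 10.89 at steady state. The arrays did not overlap, and the rise of 1.13-fold passed (0.17 ± 0.06, adjusted p = 0.025). It no longer passed when 1 of 3 arrays was dropped, BY005 at 24 min (0.12 ± 0.05, adjusted p = 0.072), BY006 at steady state (0.15 ± 0.07, adjusted p = 0.087) or BY007 at steady state (0.17 ± 0.07, adjusted p = 0.065), nor with quantile normalization of the genes alone (adjusted p = 0.055). At 120 min it read 10.83, which did not differ from steady state by the test (-0.07 ± 0.08, adjusted p = 0.51).

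The kinases between Pkc1 and Slt2 fell or did not pass while SLT2 was up. BCK1 (YJL095W), the first kinase of the chain, read 10.06, 10.20 and 10.17 at 24 min in BY005, BY006 and BY007, against 10.41, 10.38 and 10.52 at steady state. It was lower on each array at 24 min, and the fall passed (-0.29 ± 0.06, adjusted p = 0.0012), while with spike-in scaling it read 0.68 ± 0.84. In BY005 it was lowest at 14 min, at 10.01, and stood at 10.26 and 10.29 at 56 and 120 min. There the changes of -0.17 ± 0.08 (adjusted p = 0.074) and -0.15 ± 0.08 (adjusted p = 0.13) did not pass.

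MKK1 (YOR231W), 1 of the paralogous kinases that phosphorylate Slt2, read 10.02, 9.61 and 9.73 at 24 min, against 10.37, 10.24 and 10.26 at steady state. This was the largest fall among the members (-0.51 ± 0.10, adjusted p = 0.0018, 95% interval -0.74 to -0.27), 1.42-fold lower, and positive with spike-in scaling (0.47 ± 0.84). It stayed low in BY005, with 9.89 at 56 min and 9.68 at 120 min (-0.61 ± 0.15, adjusted p = 0.0054). The fall at 56 min (-0.40 ± 0.15, adjusted p = 0.036) was lost without any 1 steady-state array (adjusted p = 0.077, 0.051 and 0.055 without BY005, BY006 and BY007) or without the BY007 array at 7 min (adjusted p = 0.05). The 3 genes most like MKK1 over the 14 arrays were CCT7, for a subunit of the cytosolic chaperonin (r = 0.976), HIS7, for an enzyme of histidine synthesis (r = 0.958), and MNN9, for a mannosyltransferase of the Golgi (r = 0.957). These points share the arrays and their normalization.

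MKK2 (YPL140C) read 9.26, 9.42 and 9.50 at 24 min, against 9.40, 9.53 and 9.54 at steady state. The groups overlapped and the change of -0.09 ± 0.08 did not pass (adjusted p = 0.32, 95% interval -0.27 to 0.09). In BY005 it was highest at 120 min, at 9.70, a change of 0.22 ± 0.11 (adjusted p = 0.12). With the fermentation as a block MKK2 passed at 56 min (0.20 ± 0.06, adjusted p = 0.024) and 120 min (0.33 ± 0.06, adjusted p = 0.0034).

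The paralogs were set against each other directly. MKK1 minus MKK2 averaged 0.39 ± 0.317 at 24 min and 0.81 ± 0.149 at steady state (mean log2 ± SD, n = 3 each), a difference of changes of -0.42. Within the fermentations it read 0.75, 0.19 and 0.22 at 24 min in BY005, BY006 and BY007, against 0.98, 0.72 and 0.72 at steady state. It was thus lower at 24 min in all 3 fermentations, by differences of -0.22, -0.53 and -0.50. An exact two-sided permutation test over the arrays, which leaves the pairing by fermentation aside, gave p = 0.3. With 3 arrays against 3 it cannot go below 0.1, so it could not have passed and decides nothing on the difference. At 7 min the differences within BY005, BY006 and BY007 were -0.21, 0.13 and -0.03, in both directions, with a mean of -0.04 (exact permutation p = 0.8).

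Between 7 and 24 min 9 of the 10 members changed, 5 up and 4 down, against 70.3% of all genes called, 39.5% as rises and 30.8% as falls, and 9 had arrays that did not overlap, against 73.8%. SLT2 rose by 1.34 ± 0.08 (adjusted p = 1.2e-06, rank 192) and RLM1 by 0.95 ± 0.09 (adjusted p = 2.1e-05, rank 425) over this step. RHO1 rose by 0.37 ± 0.08, ROM2 by 0.24 ± 0.06 and PKC1 by 0.16 ± 0.06, while MKK1 (-0.46 ± 0.10), BCK1 (-0.27 ± 0.06), WSC2 (-0.19 ± 0.05) and MID2 (-0.12 ± 0.05) fell. These 4 falls read 0.30, 0.49, 0.57 and 0.64 under scaling to the spike-in controls. The calls of PKC1 (adjusted p = 0.041) and MID2 (adjusted p = 0.047) were the weakest. With single arrays left out PKC1 missed the threshold in 7 of 9 fits (highest adjusted p = 0.12) and MID2 in 8 of 9 (highest adjusted p = 0.12), and MID2 also did so in the blocked fit (adjusted p = 0.064).

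On the 14 min array 7 members had changed, 3 up and 4 down, against 55.5% of all genes called, 27.3% as rises and 28.2% as falls. SLT2 (0.63 ± 0.11, adjusted p = 0.0015), ROM2 (0.27 ± 0.08, adjusted p = 0.019) and RLM1 (0.35 ± 0.13, adjusted p = 0.045) were higher, and MKK1 (-0.55 ± 0.15), BCK1 (-0.42 ± 0.08), WSC2 and MID2 lower. In the blocked fit RLM1 no longer passed (0.32 ± 0.15, adjusted p = 0.11). It was also lost without any steady-state array (adjusted p = 0.068, 0.083 and 0.087 without BY005, BY006 and BY007), or without the 7 min (adjusted p = 0.059) or 24 min array of BY007 (adjusted p = 0.063). SLT2, ROM2 and RLM1 were negative on this array with spike-in scaling (-0.29, -0.65 and -0.57).

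All comparisons with steady state share its 3 arrays, so their values are not independent. At 56 min 5 members had changed, 4 up (SLT2, RLM1, RHO1, ROM2) and 1 down (MKK1), against 71% of all genes called, 45.3% as rises and 25.7% as falls. At 120 min 6 had changed, 3 up (ROM2, RHO1, SLT2) and 3 down (MKK1, MID2, WSC2), against 66.7%, with 41.4% as rises and 25.3% as falls. SLT2 was still 1.3-fold above steady state at 120 min (0.38 ± 0.11, adjusted p = 0.015, but adjusted p = 0.051 in the blocked fit), while RLM1 was not called (0.23 ± 0.13, adjusted p = 0.14). At 120 min relative to 24 min 5 members had changed, 1 up and 4 down, against 46.5% of all genes called, 28.4% as rises and 18.2% as falls. ROM2 was up by 0.39 ± 0.08 (adjusted p = 0.0044), though it read -0.93 with spike-in scaling. SLT2, RLM1, MID2 (-0.46 ± 0.06, adjusted p = 0.00071) and PKC1 (-0.24 ± 0.08, adjusted p = 0.044) were down. The call of PKC1 was lost in 8 of 9 fits with single arrays left out (highest adjusted p = 0.066).

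**Figure D3:**
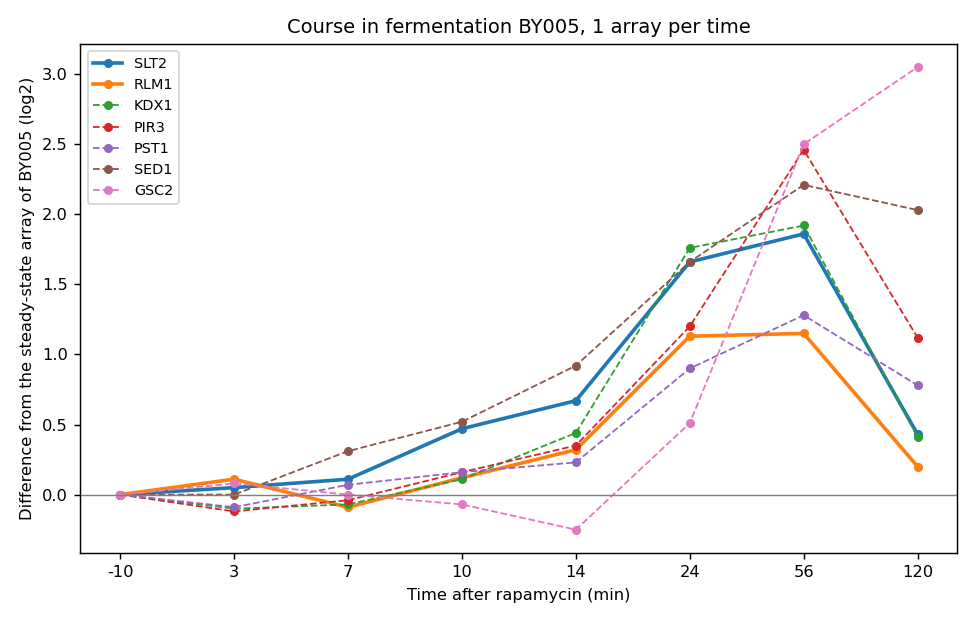
Log2 difference from the steady-state array of BY005 for SLT2, RLM1 and 5 cell wall or pathway genes against minutes after rapamycin, in evenly spaced steps, with 1 array per time and no error bars. KDX1 runs close to SLT2, with 1.92 at 56 min and 0.41 at 120 min, whereas GSC2 goes on to 3.05 at 120 min.

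The genes at the output of the pathway were read from a list of cell wall genes reported to depend on Rlm1, 13 of 14 of them measured. At 24 min 9 rose and none fell, with a median of 0.31, while 75% of all genes were called and 44.5% rose. SED1, for an abundant wall protein of stressed cells, rose 2.78-fold (1.48 ± 0.10, adjusted p = 1.8e-06), PIR3, for a wall protein bound to glucan, 2.11-fold (1.08 ± 0.08, adjusted p = 5.1e-06) and PST1, for a wall protein made on wall damage, 1.88-fold (0.91 ± 0.07, adjusted p = 3e-06). KDX1, for a pseudokinase and paralog of Slt2, rose 3.03-fold (1.60 ± 0.09, adjusted p = 7.8e-07). It read 11.00, 10.71 and 10.95 at 24 min in BY005, BY006 and BY007, against 9.24, 9.31 and 9.32 at steady state, and at 7 min it had changed by 0.01 ± 0.09.

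In BY005 KDX1 was highest at 56 min (1.87 ± 0.13, adjusted p = 3.3e-06) and lower at 120 min than at 24 min (-1.25 ± 0.13, adjusted p = 0.00013), like SLT2. Its remaining difference from steady state at 120 min, 0.35 ± 0.13 (adjusted p = 0.037), was lost without any steady-state array (adjusted p = 0.078, 0.063 and 0.056 without BY005, BY006 and BY007) and with quantile normalization of the genes alone (adjusted p = 0.055). PIR3 rose by 2.44 ± 0.12 at 56 min (adjusted p = 4.2e-07) and by 1.10 ± 0.12 at 120 min (adjusted p = 6.3e-05). SED1 kept a rise of 1.90 ± 0.14 at 120 min (adjusted p = 6.1e-06) and PST1 one of 0.85 ± 0.09 (adjusted p = 6e-05). Values at 56 and 120 min come from 1 array each. The list as a whole counted 12 rises and 1 fall at 56 min, and 8 rises and 2 falls at 120 min, where 45.3% and 41.4% of all genes rose, in that order. The 2 falls at 120 min, named after they were counted, were CHS3, for the main chitin synthase (-0.53 ± 0.09), and CWP1, for a mannoprotein (-0.25 ± 0.09, adjusted p = 0.029). CWP1 was lost without 1 of 2 steady-state arrays, with adjusted p = 0.059 for BY005 and adjusted p = 0.068 for BY006 left out.

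Of 18 genes for making glucan and chitin, 8 rose and 4 fell at 24 min, with a median of 0.10, against 0.11 for all genes, of which 75% were called. CHS1, for the chitin synthase that repairs the wall after division, rose 1.77-fold (0.83 ± 0.05, adjusted p = 1.1e-06). SKN1, for a protein of beta-glucan synthesis, rose by 0.52 ± 0.12 (adjusted p = 0.0042) and CHS5, needed to bring Chs3 to the surface, by 0.48 ± 0.07 (adjusted p = 0.00021). SMI1, for a regulator of glucan synthesis, fell (-0.48 ± 0.07, adjusted p = 0.00025), though it read 0.50 ± 0.84 with spike-in scaling. GSC2, for the glucan synthase of stressed cells, was picked after its values were seen. It read 10.86, 10.40 and 10.68 at 24 min, against 10.34, 10.29 and 10.24 at steady state (0.36 ± 0.11, adjusted p = 0.013), and in BY005 12.84 at 56 min and 13.39 at 120 min. The change at 120 min was 8.58-fold (3.10 ± 0.15, adjusted p = 5.5e-07), so GSC2 stood at its highest where SLT2 and RLM1 had come down.

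Of 9 genes that restrain the pathway, among them those for GTPase-activating proteins of Rho1 and phosphatases that act on Slt2, 4 rose and 1 fell at 24 min, with a median of 0.14. Among all genes 75% were called, 44.5% as rises and 30.4% as falls, and the difference in share was not tested. SDP1, for a phosphatase of Slt2, rose 5.25-fold (2.39 ± 0.32, adjusted p = 0.00015). It read 10.65, 10.75 and 10.61 at 24 min in BY005, BY006 and BY007, against 8.31, 8.12 and 8.41 at steady state. At 7 min it had 10.35, 8.77 and 9.69, higher than steady state on all 3 arrays but uneven, and did not pass (1.33 ± 0.32, adjusted p = 0.095). It passed in 1 of 9 fits with single arrays left out, without the 7 min array of BY006 (1.74 ± 0.18, adjusted p = 0.0012). That fit called 765 of all genes at 7 min, against 49 with no array left out. On the 10 min array SDP1 was up by 2.97 ± 0.46 (adjusted p = 0.0015), before RLM1 passed.

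The tyrosine phosphatase genes went opposite ways at 24 min. PTP2 read 11.03, 11.33 and 11.30 at 24 min, against 9.95, 10.29 and 10.48 at steady state, a rise of 0.98 ± 0.14 (adjusted p = 0.00025). PTP3 read 9.36, 9.34 and 9.40 at 24 min, against 10.22, 10.40 and 10.32 at steady state, a fall of 1.93-fold (-0.95 ± 0.09, adjusted p = 2.1e-05) that spike-in scaling took to 0.03 ± 0.84. BAG7, for a GTPase-activating protein of Rho1, lay below the array background of 5.63 on all 3 steady-state arrays (mean 5.35) and reached a mean of 7.39 at 24 min. It was at least 3.39-fold higher, with the steady-state values raised to the background. The limma adjusted p of 1.6e-06 is that of the fitted change of 2.04, which uses the values below background. The background is the 95th percentile of the fission yeast probe sets on the same arrays.

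Of 5 genes listed as other nuclear effectors, 2 rose and 2 fell at 24 min. Among all genes 75% were called, 44.5% as rises and 30.4% as falls. The list holds SMP1 as the paralog of RLM1. SMP1, the paralog of RLM1, rose by 0.74 ± 0.08 (adjusted p = 3.9e-05), from a dim level, with 7.88, 7.72 and 7.80 at 24 min and 7.06, 7.06 and 7.06 at steady state. The other rise was that of KDX1, which is also counted among the Rlm1-dependent genes. SKN7, for a response regulator that binds Rho1, fell 1.83-fold (-0.87 ± 0.05, adjusted p = 6.5e-07; 0.11 ± 0.84 with spike-in scaling). SWI6, for a subunit of the cell cycle factor SBF that Slt2 phosphorylates, fell slightly (-0.19 ± 0.07, adjusted p = 0.045). That call was lost in 6 fits with a single array left out, without any steady-state array (adjusted p = 0.12, 0.095 and 0.063 without BY005, BY006 and BY007), the BY006 or BY007 array at 24 min (adjusted p = 0.13 and 0.11, in that order), or the BY005 array at 7 min (adjusted p = 0.054), and with quantile normalization of the genes alone (-0.14, adjusted p = 0.11). It was 0.79 with spike-in scaling.

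**Figure D4:**
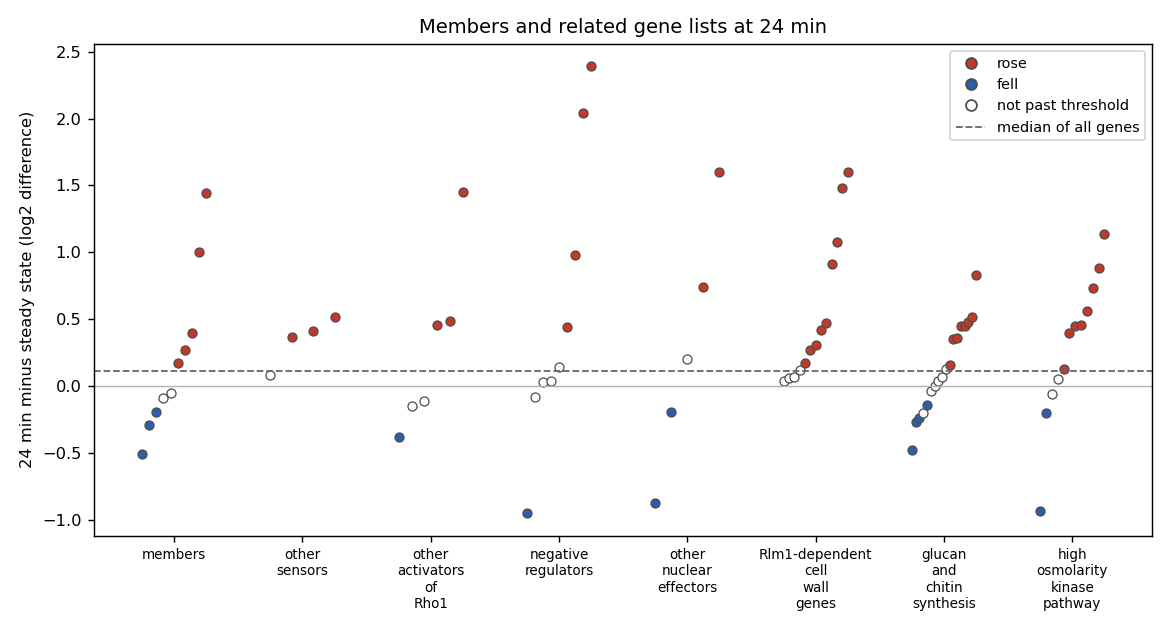
Log2 difference of 24 min minus steady state for each measured gene of the pathway and of 7 related lists; filled points passed the threshold (red rose, blue fell), open points did not, and the dashed line is the median of all genes (0.11). The members span -0.51 to 1.44, and the negative regulators hold the highest value, SDP1 at 2.39.

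The high osmolarity kinase pathway is another MAP kinase chain. Of its 12 genes 8 rose and 2 fell at 24 min, with a median of 0.42, where 75% of all genes were called, 44.5% as rises and 30.4% as falls. The difference from the cell wall integrity genes was not tested. HOG1, its MAP kinase and the counterpart of SLT2, was picked after its value was seen and read 0.05 ± 0.04 (adjusted p = 0.34). Its upstream kinase genes SSK22 (1.14 ± 0.11, adjusted p = 1.6e-05) and STE11 (0.88 ± 0.06, adjusted p = 1.8e-06) and the adaptor gene STE50 (0.73 ± 0.09, adjusted p = 7.8e-05) rose. SHO1, for a membrane protein of the pathway, fell (-0.93 ± 0.04, adjusted p = 2.4e-07), but not with spike-in scaling (0.04 ± 0.84).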

How the data were processed

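The deposited values are linear RMA intensities, made by the authors; the submitters' processing notes name R 2.10.0, affy and RMA. The design had assumed log2 values, and log2 was taken here. The annotation gave 5498 of the 10928 probe sets a single gene of budding yeast, 5449 genes in all, and several probe sets of a gene were averaged. Symbols follow a RefSeq gene table of assembly R64. No scanner files were used. The number of arrays limits the precision.

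limma 3.58.1 (R 4.3.3) was fitted to all 14 arrays in 8 time groups without a block, with 6 residual degrees of freedom, and adjusted over all genes. The fit was also run on simulated data with independent noise for each array, which cannot check for an effect of the fermentation. Samples with the same fermentation name came from the same culture, per the labels; their deviations from the group means correlated with r between -0.164 and 0.528. Alternatives were the fermentation as a block, fixed or random, other scalings, filters and offsets, and leaving out arrays.

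The members and lists were chosen with earlier results of these data known. Beside the members, up to 4 called genes with the largest changes at 24 min were named per list, with paralogs of members and the 3 genes most like SLT2 and MKK1.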

Additional observations from a re-analysis of the deposited data

How the results depend on the processing

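Scaling to the hybridisation controls, whose median standard error per gene was 0.84 for replicated and 1.19 for single-array times, left 0 members called in every comparison, against 8 at 24 min, 9 for 24 against 7 min, 2 at 10 min, 7 at 14 min, 5 at 56 min, 6 at 120 min and 5 for 120 against 24 min. It left 0 of the other sensors, 1 of the other activators, 2 negative regulators, 1 nuclear effector, 2 Rlm1-dependent genes and 0 genes of glucan and chitin synthesis or high osmolarity called at 24 min. Under it the 24 min values of WSC2 (0.79), BCK1 (0.68), MKK1 (0.47), STT4 (0.60), PTP3 (0.03), SKN7 (0.11), SWI6 (0.79), SMI1 (0.50) and SHO1 (0.04) turned positive, as did WSC2 (0.57), MID2 (0.64), BCK1 (0.49) and MKK1 (0.30) for 24 against 7 min. Negative values replaced rises for ROM2 (-0.19), SLT2 (-0.12) and WSC1, listed as SLG1 (-0.19), at 10 min, ROM2 (-0.65), SLT2 (-0.29), RLM1 (-0.57) and KDX1 (-0.53) at 14 min, ROM2 (-0.36) and RHO1 (-0.33) at 56 min, and ROM2 for 120 against 24 min (-0.93). The median change of all genes under it was 0.25 at 7 min, 1.08 at 24 min and -0.47 at 10 min. It was -0.92 at 14 min, -0.76 at 56 min and -0.20 at 120 min. The scaling moves all genes of an array by the same amount, set by the controls of that array. Why the controls differed between arrays was not tested. With the fermentation as a replicate block 1 member was called at 10 min, and the calls it changed are given beside their results; it changed no other call of a member except MKK2 for 120 against 24 min (0.42, adjusted p = 0.0025, against 0.31, adjusted p = 0.051, without it). Quantile normalization of the genes alone made 1232 rises and 1140 falls at 10 min, against 1447 and 844, 1338 and 1387 for 120 against 24 min, against 1545 and 990, and 25 and 6 at 7 min, against 45 and 4. The 49 genes called at 7 min became 118 with the block, 180 with a random block, 102 with a trended robust prior, 76 over genes above background and 31 with quantile normalization, and the counts under spike-in scaling were 0 at 7 min, 418 at 24 min (4085 without it), 204 for 24 against 7 min (3830), 1 at 10 min (2291), 95 at 14 min (3026), 241 at 56 min (3868), 17 at 120 min (3634) and 1 for 120 against 24 min (2535). With single arrays left out, the MKK1 minus MKK2 difference ranged from -0.08 to 0.05 at 7 min and from -0.60 to -0.32 at 24 min, and 7 to 8 members were called at 24 min.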
